A study of Chlorocebus sabaeus with 3 samples.

Results

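Cell cycle and proliferation genes were read in 3 eye surface tissues, namely limbus, cornea, and conjunctiva, of the vervet monkey (Chlorocebus sabaeus), with 1 expression array for each tissue. The 50 genes were taken from a list of textbook cell cycle genes. All 50 had at least 1 probe set with a single gene symbol, out of 19775 genes so named on the array. By role, 16 genes belong to DNA replication, 29 to mitosis, and 5 to the D-type cyclins and the CDK inhibitors. The animals were 32 to 37 months old, no treatment is named, and every piece was taken from a single eye that had been frozen whole. Each piece held the epithelium and the tissue directly under it: stroma for the cornea and the limbus, and the Tenon layer for the conjunctiva. Without replicate arrays, no difference can be weighed against replicate error, and p-values are not given. In such pieces, fewer cells of a type and less RNA per cell cannot be told apart.

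The cell cycle is driven by cyclins and their kinase partners. D-type cyclins start the passage out of G1, E2F factors switch on the genes of DNA replication, and cyclin A and cyclin B with CDK1 carry the cell into mitosis. The CDK inhibitors p21 and p27 hold the cycle back. Most replication and mitosis genes are transcribed only in cycling cells, so that in a stratified epithelium their transcripts come mainly from the basal layer. Stem cells of the corneal epithelium are held to reside at the limbus and to divide slowly, while their progeny in the basal cornea divide more often.

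The deposited values were intensities after RMA normalization, on a linear scale. Their median over 54675 probe sets lay between 48.8 and 50.7 on the 3 arrays, and a value of 100 was reached by 29.8% to 30.4% of probe sets. Bacterial poly-A controls, which are mixed into the RNA before labeling, differed more. On their 8 probe sets at the 3′ end, the median ratio was 3.58 for the cornea over the limbus and 2.21 for the cornea over the conjunctiva. On 18 probe sets of the hybridization controls the same median ratios were 1.52 and 1.22, and the ratios of their means were 1.72 and 1.17. The part of these differences in the results was not tested. Dividing each array by the mean of its hybridization controls moves the median log2 ratio of all genes to 0.73 for the limbus over the cornea, 0.51 for the limbus over the conjunctiva, and -0.22 for the cornea over the conjunctiva. As deposited, these medians were -0.05, -0.04, and 0.01. A group median is therefore also given as its distance from the median of all genes, which a common factor per array cannot change.

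The pieces carried the markers of their labels. The corneal keratin KRT12 had 8068 in cornea and 54.3 in conjunctiva, the goblet cell mucin MUC5AC had 1618 in conjunctiva and 102 in cornea, and all 4 melanocyte genes measured were highest in the limbus. All 6 goblet and mucosal genes were highest in the conjunctiva, and 4 of 6 corneal stroma genes in the cornea. The 3′ to 5′ ratio, a measure of RNA integrity, did not order the tissues alike on both control genes. For GAPDH it was 3.12 for limbus, 4.58 for cornea, and 3.83 for conjunctiva, and for ACTB it was 11.8, 11.2, and 10.3.

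Among the 50 cell cycle genes, the highest value was corneal in 37, limbal in 8, and conjunctival in 5. Among all 19775 genes, the shares were 38.4%, 24.9%, and 36.7%. With each array divided by its hybridization controls, the counts were 7, 41, and 2, beside 4.76%, 85.2%, and 9.99% of all genes. As deposited, of 36 cell cycle genes with a value of at least 100 in any tissue, 27 peaked in cornea, 6 in limbus, and 3 in conjunctiva, against 43.4%, 22.9%, and 33.7% of the 11003 genes of that level. The most frequent order of values as deposited was cornea, limbus, conjunctiva. It was seen in 25 of 50 cell cycle genes (50%) and in 21.6% of all genes. The conjunctiva was lowest in 29 of the 50 as deposited (58%), compared with 33.9% of all genes.

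**Figure D1:**
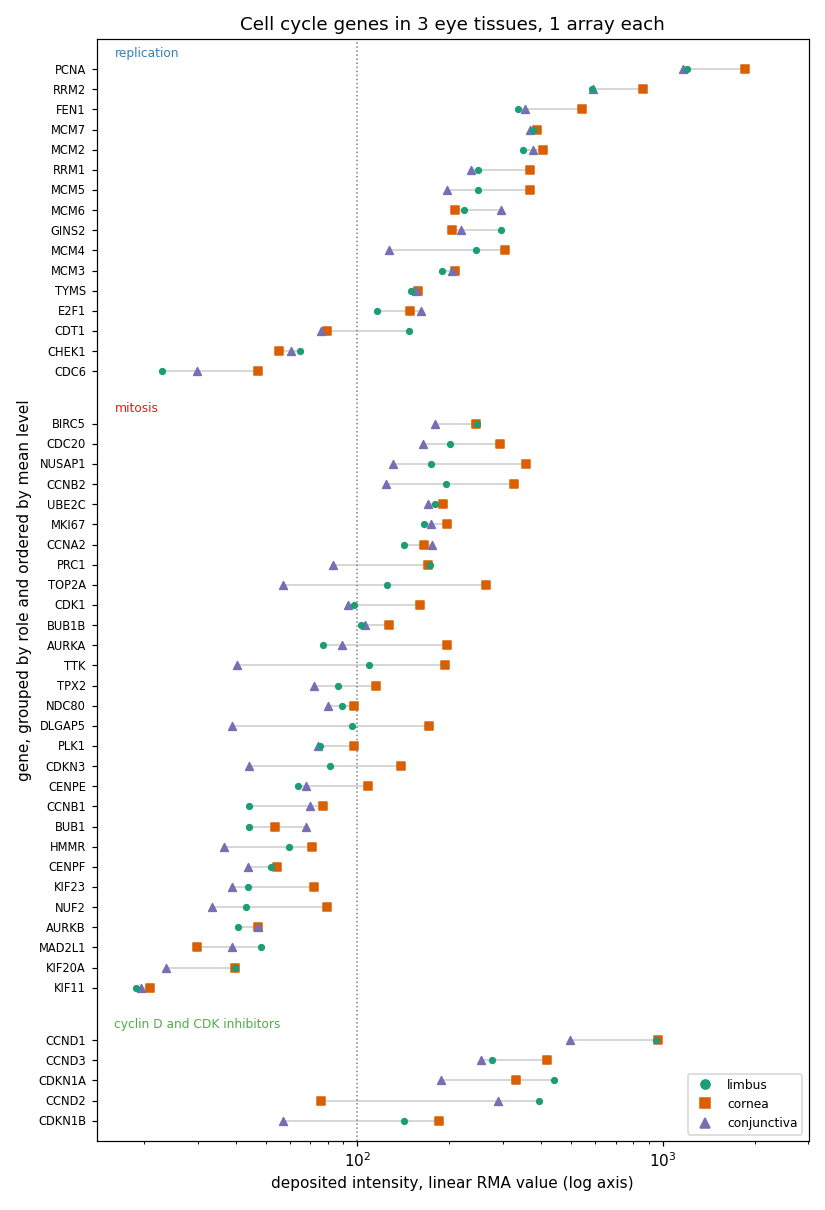
Deposited intensity (log axis) of each of the 50 cell cycle genes on 1 array per tissue (circles for limbus, squares for cornea, triangles for conjunctiva), grouped by role. The dotted line marks 100. Squares lie farthest right in 37 genes as deposited (7 with each array divided by its hybridization controls), and CCND2 has the widest gap of all, with its square on the left.

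As deposited, more of the genes were 2-fold apart between the cornea and the conjunctiva than in the other comparisons. With the hybridization controls, limbus over conjunctiva had more, with 14 genes against 9 for cornea over conjunctiva and 1 the other way, beside 12.8%, 3.43%, and 8.46% of all genes. Of the 50 genes, 11 were 2-fold or more (the threshold used in the study) higher in the cornea, compared with 5.31% of all genes. Among genes with a value of at least 100 there were 10 of 36, compared with 8.52%. In the other direction, CCND2 alone was at least 2-fold higher in the conjunctiva, where the share of all genes was 5.68%, or 8.24% of those with a value of at least 100. Of the 11 genes, 9 belong to mitosis. The median log2 ratio of cornea over conjunctiva was 0.68 for mitosis, 0.10 for replication, and 0.81 for the D-type cyclins and CDK inhibitors, beside 0.01 for all genes. After division by the hybridization controls the medians were 0.45, -0.13, and 0.59. The distance from the median of all genes was 0.67 for mitosis, 0.09 for replication, and 0.81 for the D-type cyclins and CDK inhibitors under both scalings. Most markers of the corneal epithelium moved with the mitosis genes. As deposited, 5 of 6 were highest in the cornea, compared with 38.4% of all genes, and 1 in the conjunctiva. Sums over all 6 were 41692 in cornea, 18551 in limbus, and 14070 in conjunctiva. Of 8 basal epithelial genes, 4 were highest in the cornea, while the lymphocyte and myeloid genes were highest in the conjunctiva. The part of the cell mixture in the mitosis values was not tested.

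Several of the mitosis genes with the widest gap act on the spindle. TTK, the checkpoint kinase that watches attachment of chromosomes to the spindle, had corneal, limbal, and conjunctival values of 194, 109, and 40.3. Cornea exceeded conjunctiva 4.81-fold. DLGAP5, which stabilizes spindle fibers at the kinetochore, had 172, 96.3, and 38.9 in the same order, a 4.42-fold difference. In both the limbal value lay between the other two, and each gene has a single probe set.

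TOP2A, the topoisomerase that untangles sister chromatids, had corneal, limbal, and conjunctival values of 265, 125, and 56.9. This is a 2.12-fold excess of cornea over limbus and a 4.65-fold excess of cornea over conjunctiva. On its other probe sets the cornea was highest as well, but less far apart, with 82.6 against 51.5 and 47.5, and with 29.3 against 15.7 and 18.2. The spindle protein NUSAP1 had corneal, limbal, and conjunctival values of 355, 174, and 130, and its other probe set had 88.8, 40.5, and 32.4. Aurora kinase A (AURKA), which matures the centrosomes, had 197, 77.4, and 89.3, and its brighter other probe set had 98.8, 43.3, and 31.4. AURKA thus had its lowest value in the limbus on the first probe set and in the conjunctiva on the second.

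TOP2A, NUSAP1, and AURKA were the 3 cell cycle genes whose corneal value was 2-fold or more above each of the others, compared with 1.89% of all genes. All 5 other probe sets of these genes were highest in the cornea. With a pseudocount of 32 or with division by the hybridization controls, none of the 3 stayed 2-fold or more above both other tissues. None of the 50 passed for the limbus or the conjunctiva, where 0.475% and 1.68% of all genes did.

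CDKN3, a phosphatase that acts on CDK1 and CDK2, had corneal, limbal, and conjunctival values of 139, 81.1, and 44.3. Its other probe set had 113, 87.4, and 49.3, so both placed the conjunctiva lowest. Cyclin B2 (CCNB2), a partner of CDK1, had 325, 195, and 124, or 2.61-fold more in the cornea than in the conjunctiva. On its other probe sets, with values of at most 61.3, the highest tissue was the conjunctiva on one and the cornea on the other. PRC1, which bundles microtubules at the spindle midzone, differed in that limbus and cornea were close, with 173 and 170 against 83.3 in the conjunctiva. The kinetochore protein NUF2 was 2.37-fold above the conjunctiva in the cornea at low values, with 79.4, 43.1, and 33.4.

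The remaining mitosis genes with a value of at least 100 were less than 2-fold apart on the probe set used. CDK1, the kinase that drives entry into mitosis, had corneal, limbal, and conjunctival values of 160, 97.7, and 93.4. Each of its 3 bright probe sets peaked in the cornea. The dimmest of these had 127, 60.8, and 48.3, with cornea 2.09-fold over limbus and 2.64-fold over conjunctiva. CDC20, which activates the anaphase-promoting complex, had 292, 200, and 164, and the kinetochore motor CENPE had 108, 63.8, and 67.8. TPX2, which activates Aurora A on the spindle, had 115, 86.4, and 71.9, and the checkpoint protein BUB1B had 127, 103, and 106. In these 5 genes the cornea was highest as deposited on the probe sets used. With division by the hybridization controls it was the limbus, as in 85.2% of all genes. As deposited, the limbus and the conjunctiva lay within 1.22-fold of each other on these probe sets.

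The proliferation marker MKI67 (Ki-67) showed little difference on its brightest probe set, with corneal, limbal, and conjunctival values of 196, 165, and 174. A second MKI67 probe set had corneal, limbal, and conjunctival values of 126, 77.5, and 47.5. The 2 dimmer ones were highest in the limbus, at 50.8 and 42.4. Of the ubiquitin-conjugating enzyme UBE2C the values were 190, 179, and 170 in the same order. Cyclin A2 (CCNA2) was highest in the conjunctiva, with 176 against 166 in cornea and 142 in limbus. For these 3 genes the tissues lay close together on the probe set used.

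BIRC5 (survivin), a subunit of the chromosomal passenger complex, was read inconsistently. On its brightest probe set it had limbal, corneal, and conjunctival values of 246, 245, and 180. Another had 52.5, 120, and 115 in the same order, so that the limbus was lowest there. The limbus was lowest on the remaining, dimmer ones too, which had 41.7, 98.3, and 48.2, and 75.7, 77.6, and 91.1. A direction for BIRC5 is therefore not given.

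Of the mitosis genes, 12 stayed under 100 in all tissues: CCNB1, BUB1, AURKB, PLK1, CENPF, KIF11, KIF20A, KIF23, MAD2L1, NDC80, NUF2, and HMMR. They include cyclin B1, Aurora B, the Polo-like kinase, and several mitotic kinesins. On the probe sets used, their values lay between 18.8 and 97.7. Ratios of values this low are uncertain. Apart from NUF2, these genes were less than 2-fold apart between any pair of tissues on those probe sets. On another probe set HMMR ran the other way, with conjunctiva 2.48-fold above cornea (80.0 against 32.2). Another probe set of CCNB1 and of MAD2L1 had cornea 2.71-fold and 2.49-fold above conjunctiva. The mitotic kinesin KIF23 was highest in the cornea, at 71.9 against 43.8 in limbus and 38.8 in conjunctiva, whereas the checkpoint protein MAD2L1 peaked in the limbus, at 48.4 against 29.9 and 39.0, with another of its probe sets peaking in the cornea at 33.6.

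**Figure D2:**
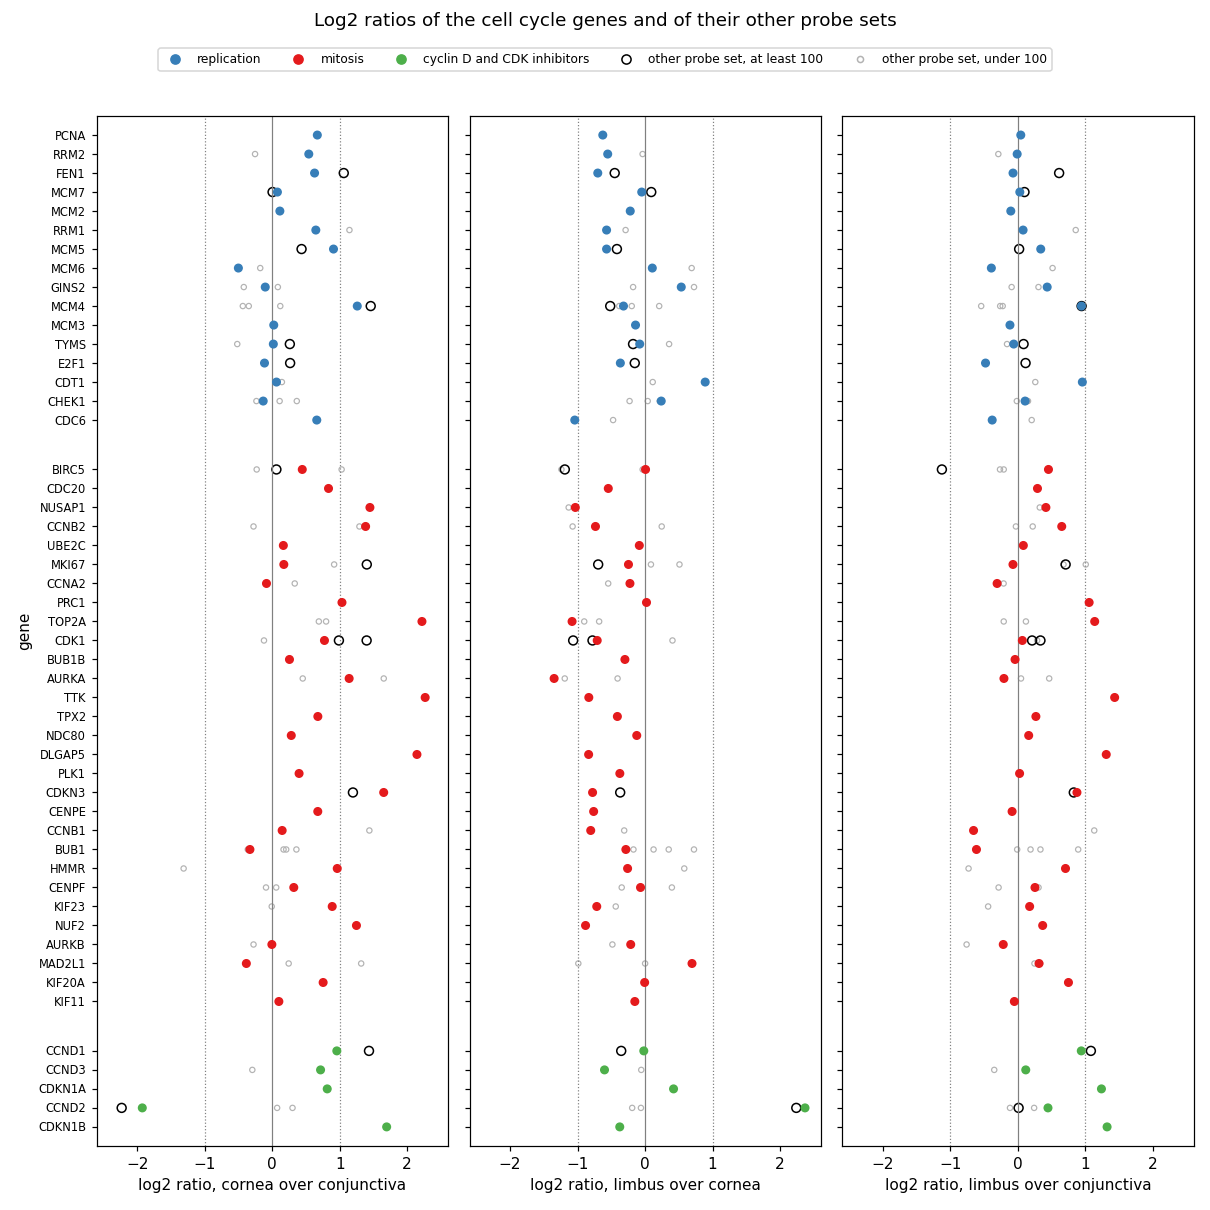
Log2 ratio of each cell cycle gene for cornea over conjunctiva, limbus over cornea, and limbus over conjunctiva, with the probe set used (filled, colored by role) and every other probe set of the gene (open, black at 100 or more and grey below). Dotted lines mark a 2-fold difference. Of 13 other probe sets at 100 or more, 12 lie on the same side as the probe set used for cornea over conjunctiva, and 8 do for limbus over conjunctiva.

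The limbus was compared with the cornea next. At least 2-fold higher in the cornea were TOP2A, AURKA, NUSAP1, and CDC6, 4 of 50 genes, compared with 2.51% of all genes. With a value of at least 100 there were 3 of 36, compared with 3.84%. CCND2 was the only gene at least 2-fold higher in the limbus, where 4.06% of all genes were, and 5.97% of those with a value of at least 100. Few genes stand behind each of these counts. The median log2 ratio of limbus over cornea was -0.37 for mitosis, -0.27 for replication, and -0.02 for the D-type cyclins and CDK inhibitors. For the 17 mitosis genes with a value of at least 100 it was -0.71, a distance of -0.64 from all genes of that level. Scaled by the hybridization controls, the medians of the full groups became 0.40, 0.51, and 0.76, so their sign depends on the scaling. Below the median of all genes they were by 0.33 and 0.22 for mitosis and replication under either scaling.

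Against the conjunctiva, the limbus was 2-fold or more higher in 6 genes: TOP2A, PRC1, TTK, DLGAP5, CDKN1A, and CDKN1B. The share of all genes was 2.62%. All 6 had a value of at least 100, where the share of all genes was 3.94%. None was at least 2-fold higher in the conjunctiva, where 2.31% of all genes were, or 3.3% of those with a value of at least 100. The median log2 ratio was 0.25 for mitosis, 0.01 for replication, and 0.94 for the D-type cyclins and CDK inhibitors. For mitosis the distance from the median of all genes was 0.29. A pseudocount of 32 left 1 of the 6 genes past the 2-fold difference, and division by the hybridization controls gave 14 genes. An intermediate limbal value was found as deposited in 17 of 29 mitosis genes (58.6%), compared with 42.1% of all genes. With the hybridization controls it was found in 7 (24.1%), compared with 14% of all genes.

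Most replication genes were less than 2-fold apart between any pair of tissues on the probe set used. PCNA, the sliding clamp of the DNA polymerases, had corneal, limbal, and conjunctival values of 1856, 1202, and 1168. The flap endonuclease FEN1, which trims the fragments of the lagging strand, had 545, 335, and 353, and its other probe set had 199, 145, and 95.3. Both subunits of ribonucleotide reductase, the enzyme that makes deoxyribonucleotides, were highest in the cornea as deposited. RRM2 had corneal, limbal, and conjunctival values of 860, 586, and 591, and RRM1 had 368, 248, and 235. On the probe sets used, the cornea stood 1.47-fold to 1.63-fold above the limbus in these 4 genes, and the limbus and the conjunctiva lay within 1.05-fold of each other. The other probe sets of FEN1 and RRM1 did not show the latter, with the limbus 1.53-fold and 1.81-fold above the conjunctiva. With the hybridization controls the limbus was highest in all 4, as in 85.2% of all genes. The log2 ratio of limbus over cornea was then 0.08 (FEN1) to 0.22 (RRM2). Thymidylate synthase (TYMS) showed little corneal excess as deposited, with 158, 149, and 156.

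MCM2 to MCM7 together form the helicase that opens the DNA ahead of the replication fork. Of the 6 genes, 5 were highest in the cornea as deposited, compared with 38.4% of all genes. With the hybridization controls all 6 were highest in the limbus, as were 85.2% of all genes. MCM4 had corneal, limbal, and conjunctival values of 304, 244, and 127. It alone of the 16 replication genes was at least 2-fold apart between cornea and conjunctiva, beside 5.31% of all genes with cornea higher. On its second bright probe set cornea exceeded conjunctiva 2.75-fold, while the median log2 ratio over all 5 of its probe sets was 0.12. MCM5 had 368, 248, and 196. The other subunits of this complex did not follow. MCM2 had 406, 349, and 376 in the same order of tissues, MCM3 had 208, 189, and 205, and MCM7 had 388, 375, and 368, its second probe set being highest in limbus at 340. MCM6 was highest in the conjunctiva, with 294 against 208 in cornea and 224 in limbus. The subunits of 1 complex thus ranged from -0.50 to 1.26 in log2 ratio of cornea over conjunctiva.

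The factors that load or activate the helicase did not peak together. CDT1, which loads it onto DNA, was highest in the limbus, with 147 against 79.6 in cornea and 76.2 in conjunctiva, and its other probe set had 59.0, 54.6, and 49.4 in that order. GINS2, a subunit of the complex that activates the helicase, was highest in the limbus too, with 295 against 204 and 219. A second GINS2 probe set had 74.8, 45.2, and 60.6, with the limbus highest again, and the dimmest one peaked in the cornea at 31.0. CDC6, which acts together with CDT1, had its lowest value in the limbus, at 22.9 against 47.2 in cornea and 29.9 in conjunctiva, below the median of every array. E2F1, an activator of S phase genes, had conjunctival, corneal, and limbal values of 161, 149, and 116, while its second probe set peaked in the cornea, at 123. The checkpoint kinase CHEK1 was between 55.2 and 65.1 in the 3 tissues.

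The D-type cyclins did not share a pattern. CCND2 had limbal, conjunctival, and corneal values of 394, 289, and 76.2. Limbus exceeded cornea 5.17-fold, the largest difference among the 50 genes, and conjunctiva exceeded cornea 3.80-fold. On a second CCND2 probe set, with 160 in limbus and 159 in conjunctiva, the corneal value was 4.72-fold and 4.69-fold lower. The remaining ones, with values of at most 73.9, showed no such gap. Division by the hybridization controls raises the limbus over cornea log2 ratio of every gene by 0.78. It could therefore only widen the CCND2 gap, and this ratio became 3.15 for CCND2. As deposited, the median over all 4 probe sets gave a limbus over cornea log2 ratio of 1.09. CCND1 was instead low in the conjunctiva, with 497 against 952 in limbus and 964 in cornea, and its other probe set had 148, 312, and 399. CCND3 was highest in the cornea as deposited, with 418 against 276 in limbus and 255 in conjunctiva, but not with the hybridization controls (log2 ratio of limbus over cornea 0.18).

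Markers of several other cell types shared the low corneal value of CCND2. The basal keratins KRT14 and KRT15 were lowest in the cornea, at 53.1 and 182, against 4580 and 3159 in the limbus. The 8 basal epithelial genes as a list did not follow: 3 were lowest in the cornea and 4 highest there, among them ITGA6 with 1297 in cornea and 360 in limbus. Of 6 vascular endothelial genes, all were lowest in the cornea, and their limbal, corneal, and conjunctival sums were 1365, 472, and 2114. Of 10 lymphocyte and plasma cell genes, all were highest in the conjunctiva and 7 lowest in the cornea, with sums of 712, 537, and 1584. The sums of 6 myeloid genes were 677, 533, and 1003. No marker was at 0, since RMA values have no zero. The part of these cells in the CCND2 values was not tested.

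Both CDK inhibitors were lowest in the conjunctiva. CDKN1A (p21), a target of p53 that stops the cycle, had limbal, corneal, and conjunctival values of 442, 330, and 187. Limbus exceeded cornea 1.34-fold and conjunctiva 2.36-fold. CDKN1B (p27), which holds cells in a resting state, had corneal, limbal, and conjunctival values of 184, 142, and 56.9, or 3.24-fold more in the cornea than in the conjunctiva. Each has 1 probe set. With division by the hybridization controls limbus exceeded cornea for CDKN1B (log2 ratio 0.40), while both inhibitors stayed lowest in the conjunctiva. The tissue with the lowest values of many mitosis genes thus also had the lowest values of both inhibitors.

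The other probe sets of the same genes were the only internal repeat. Of the 50 genes, 32 had 55 further probe sets, most of them under 100. For cornea over conjunctiva, 32 of the 55 (58.2%) had the sign of the probe set used, as did 12 of the 13 with a value of at least 100. For limbus over cornea the counts were 35 of 55 and 11 of 13, and for limbus over conjunctiva 26 of 55 and 8 of 13. The median SD of the log2 ratio between probe sets of 1 gene was 0.36 for limbus over cornea and 0.34 for each of the other comparisons. This spread is that of single genes and gives no error for a group median.

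Further genes of the same processes were read as well. Of 47 other mitosis genes measured, 32 were highest in the cornea as deposited and 7 with division by the hybridization controls, where the shares of all genes were 38.4% and 4.76%. Their median log2 ratio of cornea over conjunctiva was 0.49 and 0.26 under these scalings. In 12 of them cornea exceeded conjunctiva 2-fold or more, and in none did conjunctiva exceed cornea by as much, compared with 5.31% and 5.68% of all genes. The hybridization controls gave 6 and 1, compared with 3.43% and 8.46%. Among them, the condensin subunit NCAPG had corneal, limbal, and conjunctival values of 115, 54.0, and 33.5. CDCA3, a trigger of mitotic entry, had 318, 162, and 112, and on its other probe set 172, 140, and 147. CDCA8 and CDCA5, which act in the passenger complex and in sister chromatid cohesion, had corneal values 2.44-fold and 2.37-fold above conjunctiva. The condensin subunit SMC2 and the ubiquitin-conjugating enzyme UBE2S were 2.28-fold and 2.29-fold higher, but the other SMC2 probe set was highest in limbus, with 50.4 against 41.8 in cornea and 35.4 in conjunctiva.

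Of 37 other replication genes measured, 26 were highest in the cornea as deposited, compared with 38.4% of all genes. With the hybridization controls it was 1 of 37, compared with 4.76% of all genes. Their median log2 ratios of cornea over conjunctiva were 0.39 and 0.16 under these scalings. In 2 of the 37, cornea was 2-fold or more over conjunctiva, a share close to the 5.31% of all genes. They were ORC2, a subunit of the origin recognition complex, and DBF4, the activator of the CDC7 kinase. Their corneal values were 227 and 136 against conjunctival values of 87.1 and 56.0. The other ORC2 probe set did not repeat this, with 186 in limbus, 111 in cornea, and 116 in conjunctiva. RPA1, a subunit of the protein that coats single-stranded DNA, was highest in the limbus, with 145 against 57.1 in cornea and 49.8 in conjunctiva, and all 3 of its probe sets were highest there as deposited.

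Wide gaps were also found among the other regulators of G1. E2F7 and E2F8 are E2F factors that repress E2F target genes late in the cycle. E2F7 had corneal, limbal, and conjunctival values of 1710, 311, and 43.8, although its other probe set, with 95.5, 74.0, and 73.6, showed little of this. E2F8 had 356, 127, and 47.8 on its single probe set. The retinoblastoma gene RB1, which restrains E2F, had corneal, limbal, and conjunctival values of 5346, 1454, and 1011. Its other probe set was dim and had the cornea lowest, with 21.6, 31.9, and 30.3. The related RBL1 had 141 in limbus and 104 in cornea, 4.41-fold and 3.27-fold above conjunctiva. Its other probe sets, with values of at most 38.9, showed no such gap, and 2 of its 4 probe sets were highest in the limbus. CDKN1C (p57), another CDK inhibitor of the p21 family, had 570 in the cornea against 240 in limbus and 235 in conjunctiva, and each of its 4 bright probe sets peaked in the cornea. The activator E2F3 ran the other way, with conjunctival, limbal, and corneal values of 243, 121, and 81.8. Its other probe set had 159, 87.0, and 107, with the conjunctiva highest again but the limbus lowest. Over the 23 genes measured, 12 were highest in the cornea as deposited and 4 with the hybridization controls, beside 38.4% and 4.76% of all genes. The median log2 ratio of cornea over conjunctiva was 0.25 and 0.02 under these scalings. As deposited, cornea exceeded conjunctiva 2-fold or more in 6 and the reverse held in 2, beside 5.31% and 5.68% of all genes. The hybridization controls gave 6 and 2 as well, beside 3.43% and 8.46%.

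**Figure D3:**
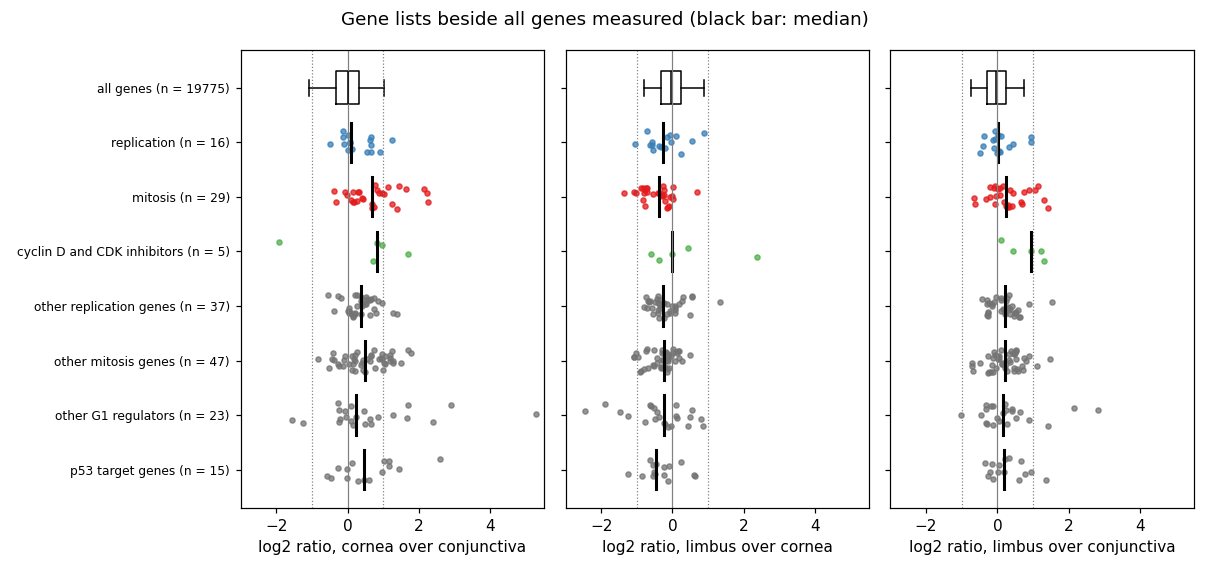
Log2 ratios of the cell cycle genes by role and of 4 further gene lists (points, 1 per gene, spread vertically for view), with the list median as a black bar, beside all 19775 genes (box: quartiles and median, whiskers: 5th and 95th percentiles). Dotted lines mark a 2-fold difference. For cornea over conjunctiva the mitosis median is 0.68 and that of all genes 0.01, and the far point among the G1 regulators is E2F7.

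**Figure D4:**
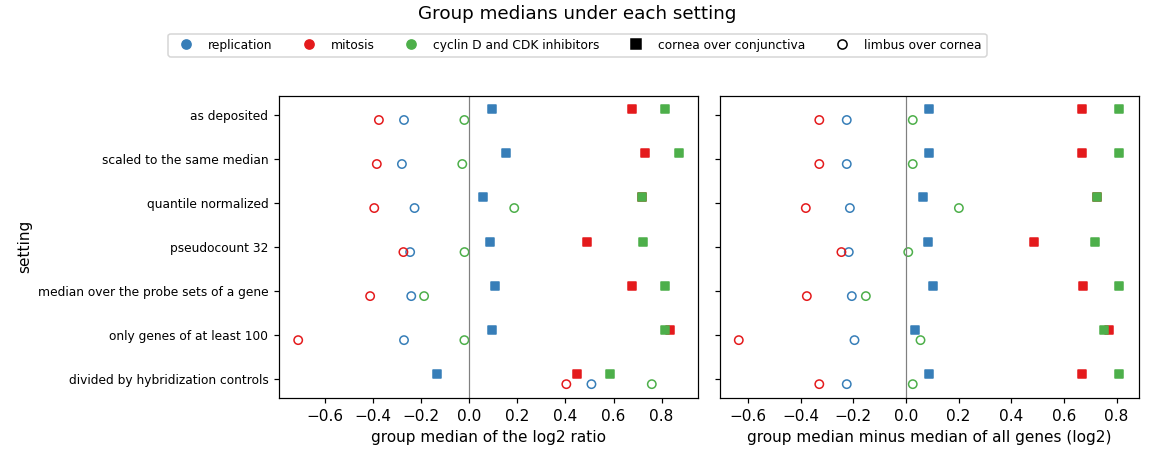
Group medians of the log2 ratio (left) and their distance from the median of all genes (right) under each setting, for cornea over conjunctiva (filled squares) and limbus over cornea (open circles). With division by the hybridization controls the limbus over cornea medians turn positive on the left, while on the right they stay where they were, at -0.33 for mitosis and -0.22 for replication.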

How the data were processed

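Total RNA from each tissue was amplified in a pair of rounds and hybridized to Affymetrix human U133 Plus arrays, 1 per tissue. The probes were designed on human sequence. The authors normalized each array by RMA (justRMA, no version given) against an unchanging set of reference arrays rather than against the other tissues, so the arrays may still differ in scale. The deposited table holds linear intensities for these samples and 0 other columns.

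Gene names come from an earlier annotation of the platform. Of 54675 probe sets, 41097 carried a single symbol and 1801 carried several, while 11777 stay unnamed. A gene is represented by the single-symbol probe set whose mean log2 value is highest over the 3 tissues. A gene counts as apart at 2-fold or more. Levels are compared only within a probe set. With 1 array per tissue, there was no test, and precision is limited by how few arrays there are. The cell cycle genes and the 12 other gene lists were chosen with earlier results of these data known. Each cell cycle gene with a value of at least 100 or a 2-fold difference is named with its values, and of each other pathway list up to 6 genes of at least 100, by size of difference. The selection was tested on simulated data with known fold changes and with noise set below the spread between probe sets of 1 gene. That test gives no rate of wrong calls for these arrays. Python 3.11.15, numpy 2.4.6, pandas 2.3.3, and matplotlib 3.10.9 were used. Alternatives were the median over probe sets, a pseudocount of 32, a minimum of 100, a 1.5-fold threshold, and 3 scalings of the arrays. Promoter sequences were not analysed here.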

Additional observations from a re-analysis of the deposited data

How the results depend on the processing

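Of 135 recomputed values, 106 stayed within 1.5-fold of a count, or, for a median, within the median SD between probe sets of a gene. That limit is no error of the median, and a small median can change sign within it. With the hybridization controls, the replication median of cornea over conjunctiva went from 0.10 to -0.13 and still counted as unchanged. Scaling to the same median changed no value beyond these limits. Division by the hybridization controls, which raises limbus relative to both other tissues, moved the most. The limbus over cornea medians turned from -0.27, -0.37, and -0.02 to 0.51 (replication), 0.40 (mitosis), and 0.76 (D-type cyclins and CDK inhibitors). Those of limbus over conjunctiva became 0.56, 0.80, and 1.49. Limbus then exceeded cornea 2-fold in 6 genes and cornea exceeded limbus in 0, where the median of all genes for limbus over cornea was 0.73. Limbus exceeded conjunctiva in 14, beside 12.8% of all genes. Against both other tissues, 2 genes passed for limbus and 0 for cornea. Shares of all genes were not computed under this scaling for limbus against cornea or for 1 tissue against both others. Highest values lay in the limbus for 41 genes, in the cornea for 7, and in the conjunctiva for 2, beside 85.2%, 4.76%, and 9.99% of all genes.

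With the median over probe sets, cornea exceeded limbus 2-fold in 2 genes, conjunctiva exceeded cornea in 0, and 2 genes peaked in the conjunctiva. A pseudocount of 32 left 1 gene with cornea 2-fold over limbus, 1 with limbus over conjunctiva, and 0 with cornea over both. Genes highest in the conjunctiva numbered 3 among those of at least 100, beside 33.7% of all genes of that level. After quantile normalization they numbered 8, beside 36.5% of all genes. At 1.5-fold, limbus exceeded cornea in 3 genes and cornea exceeded limbus in 16. Limbus exceeded conjunctiva in 13, conjunctiva exceeded limbus in 2, and cornea exceeded conjunctiva in 26. Against both others, 1 passed for limbus and 15 for cornea. Shares of all genes were not computed at 1.5-fold, with the pseudocount, or with the median over probe sets. The counts under these settings therefore have no background beside them. The cause was not tested beyond what each setting does by construction. No paired analysis was possible because there is 1 array per tissue.

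Of the 50 genes, 14 were under 100 in all tissues, where ratios are least certain.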

Other observations

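Targets of p53 other than CDKN1A were set beside it. Of 15 measured, 9 were highest in the cornea, 4 in the conjunctiva, and 2 in the limbus, and the median log2 ratio of cornea over conjunctiva was 0.47. With division by the hybridization controls 13 were highest in the limbus, as were 85.2% of all genes, and that median was 0.24. TP53I3, a quinone reductase induced by p53, had corneal, limbal, and conjunctival values of 3276, 1392, and 545. The growth arrest gene GADD45A had 705, 493, and 257 in the same order, the DNA repair gene DDB2 had 662, 453, and 297, and SESN1 had 371, 205, and 181. SFN, the 14-3-3 protein of stratified epithelia, had 10907, 7758, and 4892, and all 3 of its probe sets were highest in the cornea. For these 5 genes cornea exceeded conjunctiva 2-fold or more, and for none of the 15 did conjunctiva exceed cornea by as much. Of all genes, 38.4% were highest in the cornea, 5.31% had cornea 2-fold over conjunctiva, and 5.68% the reverse. The hybridization controls left 2 genes past the 2-fold difference, beside 3.43% of all genes. As deposited, CDKN1A had its highest value in the limbus, unlike the 5 genes named here but like 2 of the 15. No test was possible with 1 array per tissue.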
